A study of Mus musculus with 12 samples.

Results

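The 10 genes described here encode transcription factors of the AP-1 family (Fos, Fosb, Fosl1, Fosl2, Jun, Junb and Jund) and 3 further products of the early response of a cell to a stimulus (Egr1, Atf3 and Ier2). They were found by symbol among the 55487 genes of the deposited table, in which each occurred at 1 gene identifier. The libraries came from a mouse mammary fibroblast line, called MMF, that was derived from the fat pad of a healthy B6 animal. The doxorubicin group received 100 nM of this topoisomerase poison for 24 h, had its medium renewed every 3 days and was lysed on day 7. Its vehicle group received water on the same schedule. Cells of the peroxide group were exposed to 750 uM hydrogen peroxide, an oxidant, for 2 h and left for 48 h, in 3 such rounds, and lysed on day 6. Its vehicle group likewise received water. Each group had 3 libraries, 12 in all. The labels say that the vehicle cells were split regularly, so treatment and passaging cannot be told apart, and all cells were of 1 line. The time from the last medium change or split to lysis is not given in the sources used here. Whether replicates were separate cultures is also not given there, so p-values measure the spread between these libraries only, which may be technical.

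AP-1 is a dimer of basic leucine zipper proteins. Jun proteins pair with each other or with a Fos protein, whereas Fos proteins need a Jun partner to bind DNA at the site TGANTCA. Several of these genes are immediate early genes: growth factors, serum or stress switch them on within minutes through MAP kinases and the serum response factor, without new protein synthesis. FOSL1, FOSL2 and JUND are known for slower or steadier expression, and AP-1 has been described at the enhancers of senescent human fibroblasts.

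Depth ranged over the 12 libraries between 17.3 and 37.6 M reads (M, 1e+06), with 21.5 to 37.6 in doxorubicin, 19.5 to 21.9 in its vehicle, 21.4 to 32.4 in peroxide and 17.3 to 20.99 in its vehicle. Levels are counts per 1e+06 reads assigned to genes (CPM), 3 reads correspond to between 0.0798 and 0.173 CPM in a library, and the number of reads limits the precision of the low genes by counting error alone. Differences are in log2(CPM + 1), which understates changes of low genes, and a gene was tested where at least 3 libraries reached 1 CPM. That filter kept 13280 genes and 9 of the 10 genes described here, all but Fosb. A gene is said to have risen or fallen where the limma test gave a Benjamini-Hochberg adjusted p below 0.05. Libraries of a group also differed along the second principal component of all tested genes, which held 23.7% of the variance: doxorubicin replicate 1, doxorubicin vehicle replicate 3 and peroxide replicate 2 lay apart from the other libraries of their groups. The 7 fibroblast markers summed to between 6694 and 11650 CPM per library, epithelial markers to at most 1.16 CPM and endothelial markers to at most 1.56 CPM. Leukocyte markers summed to 4.28 to 6.66 CPM with doxorubicin, against 2.37 to 3.23 CPM in its vehicle, and to 2.34 to 3.27 CPM with peroxide, against 0.810 to 1.62 CPM in its vehicle. Almost all of this was Cd68, a lysosomal protein, and its part in the results was not tested. In such bulk samples, fewer cells of a type and less RNA per cell cannot be told apart.

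The starts of the Fos, Fosl2 and Jun genes are shown because these were the members with a RefSeq promoter entry that were called higher with doxorubicin. The entries cover 250 bases before and 50 bases after the transcription start on GRCm38.p6, and 7 of the 10 genes had one. Fos lies at chr12:85473640-85473939 on the plus strand, Fosl2 at chr5:32136222-32136521 on the plus strand and Jun at chr4:95052173-95052472 on the minus strand. RefSeq and the annotation used for gene positions place the Fosl2 start differently. They also differ for Fosb, Junb, Jund and Atf3, whose windows were searched but are not printed. The Fosb and Junb windows include the annotated start. The Jund window (chr8:70697489-70697788) ends before the annotated gene begins at 70698949. The Atf3 window (chr1:191183284-191183583) lies inside the annotated gene, whose minus-strand start is at 191218039. Each is printed 5′ to 3′ in its gene's direction, and capitals mark the searched motifs that were found.
Fos: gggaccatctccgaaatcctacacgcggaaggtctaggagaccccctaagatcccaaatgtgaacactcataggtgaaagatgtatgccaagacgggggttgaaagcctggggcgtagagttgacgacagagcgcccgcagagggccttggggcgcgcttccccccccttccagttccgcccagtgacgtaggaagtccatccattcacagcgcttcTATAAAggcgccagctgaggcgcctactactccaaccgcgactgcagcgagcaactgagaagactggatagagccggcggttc
Fosl2: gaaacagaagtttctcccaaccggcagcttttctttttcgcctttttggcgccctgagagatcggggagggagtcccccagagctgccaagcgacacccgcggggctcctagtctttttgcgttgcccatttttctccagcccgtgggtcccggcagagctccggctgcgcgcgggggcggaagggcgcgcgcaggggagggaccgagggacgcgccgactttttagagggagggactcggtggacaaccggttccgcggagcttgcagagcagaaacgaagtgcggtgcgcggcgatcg
Jun: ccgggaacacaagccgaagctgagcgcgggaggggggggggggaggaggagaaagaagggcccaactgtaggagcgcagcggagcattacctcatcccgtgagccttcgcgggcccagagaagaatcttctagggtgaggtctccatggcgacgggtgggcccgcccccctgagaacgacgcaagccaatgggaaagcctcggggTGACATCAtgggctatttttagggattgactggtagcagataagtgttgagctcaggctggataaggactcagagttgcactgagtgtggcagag
On both strands, 6 motifs were searched, of which TGACATCA and TGACGTTT were not in the first plan. The TATA motif TATAAA began 33 bases before the Fos start and occurred in 13.6% of all 32851 promoter windows. It was present in 2 of the 7 member windows, the other being Junb, where it began at base +1 of the RefSeq start. The Jun window held TGACATCA, the variant AP-1 site known from this promoter, beginning 45 bases before the start. That motif was present in 3.62% of all windows. As the site was already known from the Jun promoter, finding it there is no test. None of the 7 member windows held TGANTCA (7.81% of all windows), the cyclic AMP response element TGACGTCA (1.79%), the related TGACGTTT (0.390%) or the CArG box that serum response factor binds (1.63%). The absence says only that these letters are not in these windows.

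With doxorubicin, 4 of the 9 tested members rose (Fos, Fosl1, Fosl2 and Jun), 1 fell (Jund) and 4 were not called. Over all tested genes, 22.1% were called higher and 27.8% lower, which is 2937 and 3690 genes. With median-of-ratios scaling these were 3284 higher and 3175 lower, and the members 4 and 0. With the GC correction described under Fosl1, the members were 4 higher and 3 lower, since Egr1 and Ier2 were called lower too. The median difference of the 9 members was 0.63 log2 units, beside -0.03 over all tested genes. With peroxide, 4 of 9 rose (Fos, Fosl2, Jund and Egr1), 1 fell (Fosl1) and 4 were not called, beside 27.3% of all genes higher and 23.4% lower. The median of the members was 0.37 log2 units, beside -0.01 over all tested genes. Either way, the share of members called, 5 of 9, was close to the 49.9% and 50.7% of all genes called in either direction. The doxorubicin count was the less steady: it went down to 2 genes without doxorubicin replicate 3 or without its vehicle replicate 3, and was 3 without doxorubicin replicate 2, without vehicle replicate 2, or without peroxide replicate 2 and doxorubicin vehicle replicate 3 together.

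**Figure D1:**
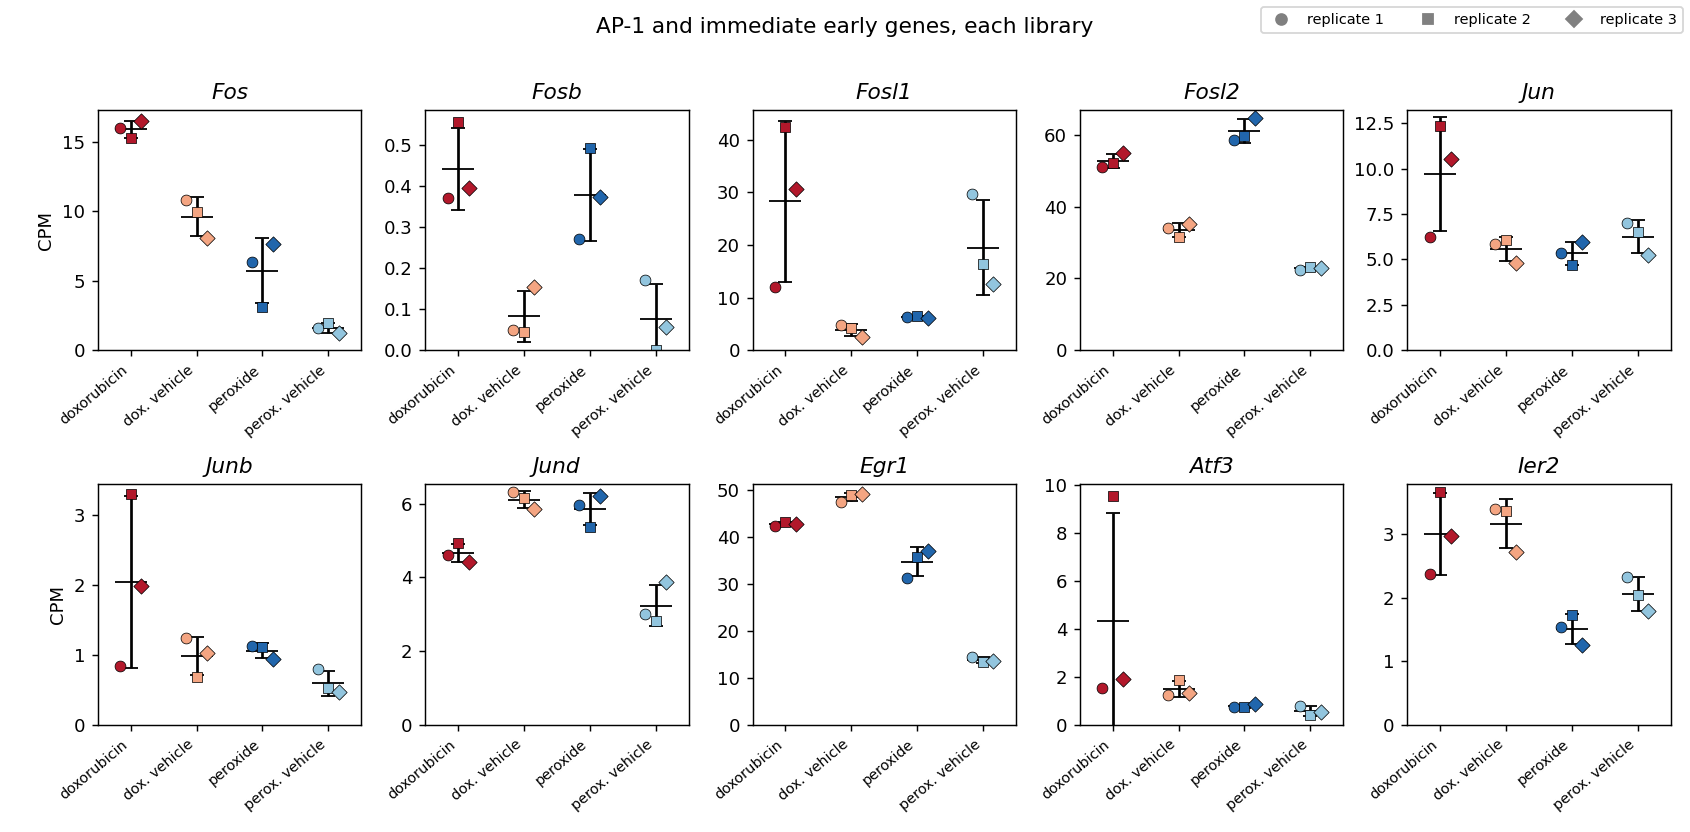
Level of each gene in CPM, by group, with 1 point per library. Circles, squares and diamonds are replicates 1, 2 and 3. Fosl1 spread from 12.1 to 42.4 CPM among the 3 doxorubicin libraries, whereas Egr1 stayed between 42.4 and 43.2 CPM in the same libraries.

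Fos, whose protein is the original partner of JUN in AP-1, lies on chromosome 12 (85473890 to 85477273, mm10). It had 15.97, 15.3 and 16.5 CPM in the doxorubicin libraries, against 10.8, 9.94 and 8.05 CPM in their vehicle. In peroxide libraries it had 6.36, 3.12 and 7.66 CPM, against 1.59, 1.95 and 1.27 CPM in their vehicle. Every treated library lay above every vehicle library of its own experiment, and peroxide replicate 2 was the lowest of its group. Fos rose by 0.68 ± 0.23 log2 units with doxorubicin (SE, adjusted p = 0.0307, 3 libraries each) and by 1.31 ± 0.23 with peroxide (adjusted p = 0.000745). The doxorubicin call was lost when any of 5 libraries was left out, with an adjusted p of 0.0579, 0.0598 and 0.0792 without doxorubicin replicates 1, 2 and 3 and of 0.0592 and 0.104 without vehicle replicates 2 and 3. It was also lost with a pseudocount of 0.1 (adjusted p = 0.05004), with no filter on low values (0.0668) and with the replicate number as a block (0.0720). The peroxide call held under all 24 alternatives. The effects of the treatments on Fos were not called different (-0.62 ± 0.33 log2 units, doxorubicin minus peroxide, adjusted p = 0.162), although they were without peroxide replicate 2 (-0.94, adjusted p = 0.00770).

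Fosl2, a Fos relative with a more sustained expression, lies on chromosome 5 (32135801 to 32157842). It had 50.9, 52.1 and 54.8 CPM in doxorubicin libraries, against 34.0, 31.5 and 35.2 CPM in vehicle libraries. Peroxide libraries had 58.6, 59.6 and 64.8 CPM, against 22.4, 23.2 and 22.9 CPM in their vehicle. The groups did not overlap in either experiment and the replicates were close. Fosl2 rose by 0.63 ± 0.07 log2 units with doxorubicin (adjusted p = 2.73e-05) and by 1.38 ± 0.07 with peroxide (adjusted p = 7.00e-08). The doxorubicin effect was smaller than the peroxide effect by 0.74 ± 0.10 log2 units (value -0.74, adjusted p = 0.000544). All of these calls held under every alternative run.

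Fosb, on chromosome 7 (19302696 to 19310051), encodes a Fos protein whose short splice form is known for long persistence in neurons. It was near the detection limit, at 0.373, 0.558 and 0.397 CPM in doxorubicin libraries, against 0.0493, 0.0456 and 0.154 CPM in their vehicle. Peroxide libraries had 0.271, 0.494 and 0.374 CPM, against 0.171, 0 and 0.0578 CPM. No library reached 1 CPM, so the gene was outside the main test, yet treated and vehicle libraries did not overlap in either experiment. The doxorubicin libraries held 43 Fosb reads in all, against 5 in vehicle libraries, a ratio of 5.62 after scaling to depth (exact 95% counting interval 2.23 to 18.2). Peroxide libraries held 30 reads, against 4 in their vehicle, a ratio of 5.52 (1.94 to 21.6). Both intervals pool the reads of a group and leave out the spread between libraries. A two-sided exact permutation test gave p = 0.1 in each experiment, which is the smallest value 3 libraries against 3 allow. Without the filter on low values, over 31170 genes, limma called Fosb higher with doxorubicin (0.41 log2 units, adjusted p = 0.00355) and with peroxide (0.36, adjusted p = 0.00796).

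Fosl1 moved in opposite directions with the treatments. It encodes FRA-1, a Fos protein without a transactivation domain of the Fos kind that is known for its high level in motile and transformed cells, and lies on chromosome 19 (5447547 to 5455946). Doxorubicin libraries had 12.1, 42.4 and 30.6 CPM, against 4.75, 4.27 and 2.57 CPM in their vehicle. Peroxide libraries had 6.32, 6.50 and 6.15 CPM, against 29.7, 16.4 and 12.5 CPM in their vehicle. Groups of an experiment did not overlap, but the doxorubicin libraries and the peroxide vehicle libraries each spread widely. Fosl1 rose by 2.46 ± 0.40 log2 units with doxorubicin (adjusted p = 0.000452), a call that held under all 24 alternatives. It fell by 1.40 ± 0.40 log2 units with peroxide (value -1.40, adjusted p = 0.0135), and this was not called without peroxide vehicle replicate 1 (-1.07, adjusted p = 0.0594). The effects differed by 3.86 ± 0.57 log2 units (doxorubicin minus peroxide, adjusted p = 0.000854). Fosl1 overlaps Ccdc85b on the opposite strand, which holds 58.9% of the 50-base windows of its exons, and the strand setting of the counting is not given in the sources used here, so part of the reads could belong to either gene. Ccdc85b itself stayed between 3.17 and 5.91 CPM over the 12 libraries and was not called (doxorubicin -0.04, adjusted p = 0.880; peroxide -0.08, adjusted p = 0.753).

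**Figure D2:**
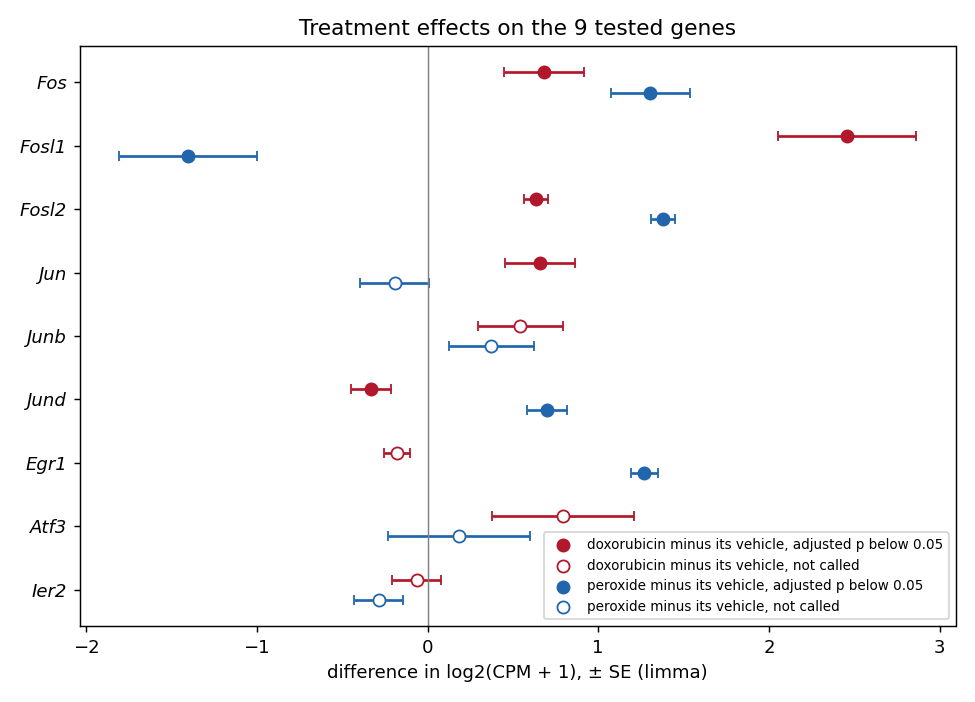
Difference in log2(CPM + 1) of the 9 tested genes, doxorubicin minus its vehicle and peroxide minus its vehicle, with bars of 1 standard error. Fosl1 stands at 2.46 with doxorubicin and at -1.40 with peroxide, and Jund at -0.33 and 0.70.

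Libraries of a group differed in Fosl1 and along the second principal component, in an order that varied between groups. In the doxorubicin group, doxorubicin replicates 1, 2 and 3 scored 0.0133, -39.9 and -29.5 on the component, and the order of their Fosl1 levels was the reverse. Peroxide vehicle replicates scored -33.6, -18.9 and -7.06, again with Fosl1 in the reverse order. Peroxide replicates scored 16.8, 48.2 and 14.2, and their Fosl1 levels, which lay close together, ran in the same order as the scores. Doxorubicin vehicle replicates scored 6.67, 5.21 and 37.8, and Fosl1 was lowest in the third, with the highest score, but the first pair did not follow the reverse order. Jun, Junb and Atf3 were likewise lowest in doxorubicin replicate 1 and highest in replicate 2. Of the 10 genes, 8 had their lowest doxorubicin level in replicate 1, and 8 their highest in replicate 2. The share of all tested genes with this order was not counted, so it is not known to be particular to these genes. The log2 level of genes also leaned towards GC-rich transcripts in doxorubicin replicate 2 (0.135 per 10 GC points relative to the group mean) and away from them in replicate 1 (-0.115). The part of this spread in the results was not tested. Without doxorubicin replicate 1, doxorubicin vehicle replicate 3 and peroxide replicate 2, Fosl1 stood at 2.75 log2 units with doxorubicin (adjusted p = 3.66e-05) and at -1.42 with peroxide (adjusted p = 0.00160). With library values adjusted for the GC content of transcripts, a step chosen after seeing the data, the values were 2.23 (adjusted p = 0.000293) and -1.38 (adjusted p = 0.00589).

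**Figure D3:**
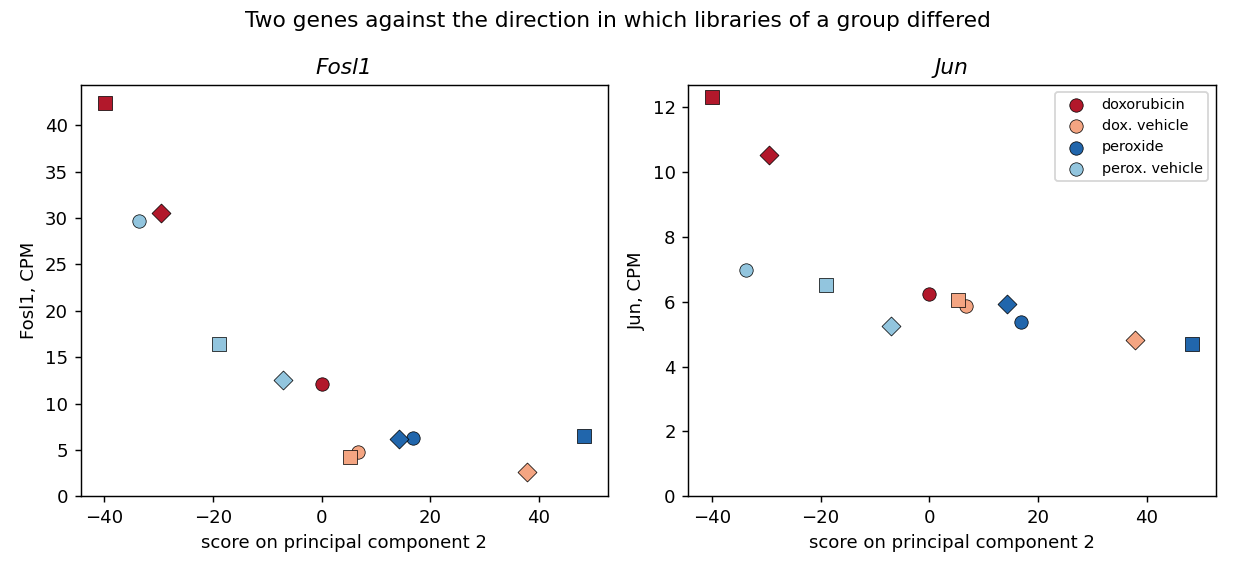
Score on the second principal component of all tested genes for the 12 libraries, against the level in CPM of Fosl1 (left) and Jun (right). Doxorubicin replicate 1 has a score of 0.0133 and 12.1 CPM of Fosl1, and replicate 2 a score of -39.9 and 42.4 CPM. The component was computed from all tested genes, Fosl1 and Jun included.

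Jun, the leading partner of Fos proteins, lies on chromosome 4 (95049034 to 95052222). Doxorubicin libraries had 6.24, 12.3 and 10.5 CPM, against 5.87, 6.06 and 4.82 CPM in their vehicle. Peroxide libraries had 5.37, 4.70 and 5.94 CPM, against 6.99, 6.51 and 5.26 CPM. Doxorubicin replicate 1 lay just above the vehicle libraries and the other two well above them, while the peroxide groups overlapped. Jun rose by 0.66 ± 0.20 log2 units with doxorubicin (adjusted p = 0.0195) and was not called with peroxide (-0.19 ± 0.20, adjusted p = 0.456). The doxorubicin call was lost without doxorubicin replicate 2 (adjusted p = 0.0817), doxorubicin replicate 3 (0.0700) or vehicle replicate 3 (0.0697). It was also lost with a separate fit of each experiment (0.0552). The difference between the treatments, 0.85 ± 0.29 log2 units (adjusted p = 0.0424), was lost when any of 9 libraries was left out, with adjusted p-values between 0.0562 and 0.0952. It held without doxorubicin replicate 1, without peroxide replicate 3 and without peroxide vehicle replicate 3. Junos, an opposite-strand gene, holds 5.83% of the windows of Jun.

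Jund, the steadily expressed Jun protein that is known to restrain growth in mouse fibroblasts, lies on chromosome 8 (70698949 to 70700616). It had 4.61, 4.92 and 4.42 CPM in doxorubicin libraries, against 6.32, 6.15 and 5.85 CPM in their vehicle. Peroxide libraries had 5.95, 5.38 and 6.22 CPM, against 3.01, 2.81 and 3.87 CPM in their vehicle. In each experiment the groups were apart, in opposite directions. Jund fell by 0.33 ± 0.12 log2 units with doxorubicin (value -0.33, adjusted p = 0.0332) and rose by 0.70 ± 0.12 with peroxide (adjusted p = 0.000415). The doxorubicin call was not kept with median-of-ratios scaling (adjusted p = 0.0650), nor without doxorubicin replicate 1 (0.0628) or 3 (0.0970), or without vehicle replicate 1 (0.0873), 2 (0.0777) or 3 (0.0553). It was also lost with no filter on low values (0.0799) and with the replicate number as a block (0.0531). The peroxide call, and the difference between the treatments of -1.03 ± 0.16 log2 units (adjusted p = 0.00121), held under every alternative run. The predicted gene Gm11175 on the other strand holds 48.3% of the windows of Jund and was listed at 0 in all 12 libraries. Of the 4 adipocyte markers, lipoprotein lipase (Lpl) moved in the same directions as Jund, at 1369 to 1452 CPM with doxorubicin, against 2172 to 2384 CPM in its vehicle, and at 2063 to 2163 CPM with peroxide, against 925.5 to 1123 CPM in its vehicle. It made up almost all of the sum of the markers, which was 1391 to 1481 CPM with doxorubicin, against 2237 to 2441 CPM in its vehicle, and 2091 to 2194 CPM with peroxide, against 977 to 1174 CPM in its vehicle. Adipoq, which encodes adiponectin, rose with doxorubicin (2.21 to 4.05 CPM, against 0.775 to 1.43 CPM in its vehicle) and with peroxide (1.59 ± 0.55 CPM, against 0.226 ± 0.149 CPM in its vehicle, SD, n = 3 each). Fabp4, a fatty acid binding protein, fell with doxorubicin (16.8 to 24.0 CPM, against 53.6 to 63.4 CPM in its vehicle) and with peroxide (26.8 to 28.6 CPM, against 49.7 to 50.98 CPM in its vehicle). Plin1 stayed at or below 0.326 CPM. The part of such cells in the result was not tested.

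Junb, an early response Jun protein that can oppose JUN, lies on chromosome 8 (84974484 to 84978718). It was low throughout, at 0.838, 3.30 and 1.99 CPM in doxorubicin libraries, against 1.23, 0.684 and 1.03 CPM in their vehicle. Peroxide libraries had 1.13, 1.11 and 0.935 CPM, against 0.796, 0.524 and 0.462 CPM. Doxorubicin replicate 1 fell among the vehicle libraries, whereas the peroxide groups did not overlap. Neither difference was called (0.54 ± 0.25 log2 units, adjusted p = 0.0901, with doxorubicin, and 0.37 ± 0.25, adjusted p = 0.234, with peroxide). Without doxorubicin replicate 1 the first was called at 0.86 log2 units (adjusted p = 0.00282), and without replicate 2, the highest library, it was 0.25 (adjusted p = 0.353).

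Egr1, a zinc finger factor that serum and stress induce alongside Fos, lies on chromosome 18 (34859823 to 34864984). It had 42.4, 43.2 and 42.7 CPM in doxorubicin libraries, against 47.4, 48.8 and 49.1 CPM in their vehicle. Peroxide libraries had 31.3, 35.8 and 37.1 CPM, against 14.4, 13.3 and 13.6 CPM in their vehicle. The groups were apart in both experiments, and the doxorubicin libraries were close to each other. It rose by 1.27 ± 0.08 log2 units with peroxide (adjusted p = 2.03e-07), under every alternative run. With doxorubicin the difference of -0.18 ± 0.08 log2 units was not called (adjusted p = 0.0752), except with the GC correction (-0.36, adjusted p = 0.0111). The effects of the treatments differed by -1.45 ± 0.11 log2 units (adjusted p = 1.34e-05). Of the adipocyte markers given with Jund, Lpl and Fabp4 also had a lower effect with doxorubicin than with peroxide (-1.77, adjusted p = 3.95e-06, and -0.63, adjusted p = 0.0140), while Adipoq was not called different (-0.14, adjusted p = 0.735), and their part in the result was not tested.

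Atf3, a stress-induced factor of the ATF family that can dimerise with Jun proteins, lies on chromosome 1 (191170296 to 191218039). Doxorubicin libraries had 1.54, 9.55 and 1.90 CPM, against 1.23, 1.87 and 1.33 CPM in their vehicle. Peroxide libraries had 0.722, 0.741 and 0.841 CPM, against 0.796, 0.381 and 0.520 CPM. A single library, doxorubicin replicate 2 with 359 reads, stood far above the rest. The differences were not called (0.79 ± 0.41 log2 units, adjusted p = 0.134, and 0.18 ± 0.41, adjusted p = 0.738). Without doxorubicin replicate 2 the first was 0.14 log2 units (adjusted p = 0.503), and without replicate 1 it was called at 1.17 (adjusted p = 0.0336).

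Ier2, a short early response gene whose protein acts in transcription, lies on chromosome 8 (84661331 to 84662852). It had 2.38, 3.67 and 2.98 CPM in doxorubicin libraries, against 3.40, 3.37 and 2.72 CPM in their vehicle. Peroxide libraries had 1.53, 1.73 and 1.26 CPM, against 2.33, 2.05 and 1.79 CPM. The peroxide libraries all lay below their vehicle and the doxorubicin groups overlapped. Neither difference was called (-0.06 ± 0.14 log2 units, adjusted p = 0.734, with doxorubicin, and -0.29 ± 0.14, adjusted p = 0.120, with peroxide), and the doxorubicin one was called with the GC correction (-0.33, adjusted p = 0.0188).

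Set side by side, the effects of the treatments differed for 5 of the 9 tested members. The treatments were given in separate experiments, so treatment, dose, day and experiment cannot be told apart in this comparison. Taken against the vehicle of each experiment, Fosl1 and Jun had a higher effect with doxorubicin than with peroxide, and Fosl2, Jund and Egr1 a lower one. These are effects and not levels. Egr1 averaged 42.8 CPM with doxorubicin and 34.7 CPM with peroxide, against 48.5 and 13.8 CPM in their vehicles. Over all tested genes, 13.5% had a higher and 20.1% a lower effect, 33.6% in all. These calls split into 1796 higher and 2665 lower, or 2116 higher and 1953 lower with median-of-ratios scaling. The split of the 9 members was 2 higher and 3 lower under both. It was 1 higher and 3 lower with no filter on low values, with the replicate number as a block and when some single libraries were left out. Without peroxide replicate 2 it was 1 higher and 4 lower.

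The vehicle groups already differed for most of these genes. Of the 9 tested members, 5 were higher in the day 7 vehicle than in the day 6 vehicle (Fos, Fosl2, Jund, Egr1 and Ier2) and 1 was lower (Fosl1), beside 15.1% of all genes higher and 12.9% lower, 28.0% in all. Fos averaged 9.60 ± 1.41 CPM on day 7 and 1.61 ± 0.34 CPM on day 6 (SD, n = 3 each), a difference of 2.02 ± 0.23 log2 units (SE, adjusted p = 0.000128). Egr1 averaged 48.5 ± 0.92 CPM on day 7 and 13.8 ± 0.55 CPM on day 6, or 1.74 ± 0.08 log2 units (adjusted p = 2.52e-07). Fosl1 averaged 3.87 ± 1.15 CPM on day 7 and 19.5 ± 8.998 CPM on day 6, a value of -2.02 ± 0.40 log2 units (adjusted p = 0.00371). Jund stood at 0.76 log2 units (adjusted p = 0.000732) and Fosl2 at 0.54 (adjusted p = 0.000330). The Ier2 value of 0.45 (adjusted p = 0.0390) was not called when any of 7 libraries was left out (adjusted p between 0.0537 and 0.114). Fosb did not separate the vehicles (exact permutation p = 1). Day, experiment and vehicle handling cannot be told apart between these groups. For Fos and Egr1 the peroxide libraries lay below the day 7 vehicle libraries.

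Per kilobase of merged exon, the order of the genes changed between groups. Egr1 was first in the peroxide libraries (7.74 ± 0.67 CPM per kb, SD, n = 3) and in the doxorubicin vehicle libraries (10.8 ± 0.21 CPM per kb). Fosl1 was first in the doxorubicin libraries, at 13.9 ± 7.52 CPM per kb, but did not differ beyond its spread from Egr1, at 9.53 ± 0.09. Fosl1 was first in the peroxide vehicle libraries too (9.61 ± 4.43 CPM per kb), above Egr1 at 3.07 ± 0.12. Fos had rank 3 of the 10 genes in the doxorubicin libraries and rank 2 in their vehicle, and rank 5 in the peroxide libraries and rank 7 in their vehicle. Fosl2 had rank 4 in doxorubicin libraries and their vehicle, rank 2 in peroxide libraries and rank 3 in their vehicle. In the doxorubicin libraries Jun (3.04 ± 0.98 CPM per kb) and Jund (2.79 ± 0.15) did not differ beyond their spread. Fosb was last in every group, at 0.0709 ± 0.0162 CPM per kb in doxorubicin libraries and 0.0133 ± 0.0098 CPM per kb in their vehicle.

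The make-up of the Fos family differed between groups on this scale. The summed level of Fos, Fosb, Fosl1 and Fosl2 was 26.2 ± 7.51 CPM per kb in doxorubicin libraries and 9.46 ± 1.05 in their vehicle. In peroxide libraries it was 11.9 ± 1.14 CPM per kb, and 12.7 ± 4.43 in their vehicle, with overlap. Fosl1 made up 50.2% ± 15.7 of the family sum with doxorubicin and 19.8% ± 4.05 in its vehicle. With peroxide its share was 26.3% ± 3.28, against 74.1% ± 7.83 in its vehicle. Fosl2 instead held 53.1% ± 3.53 with peroxide and 20.1% ± 6.52 in its vehicle, and Fos 20.01% ± 6.75 and 5.72% ± 1.77. With doxorubicin the share of Fos was 27.6% ± 9.15, against 43.0% ± 1.75 in its vehicle, although its level was higher. Within the Jun family, Jund held 43.0% ± 9.95 with doxorubicin and 62.8% ± 1.37 in its vehicle, and 62.2% ± 0.04 with peroxide and 46.6% ± 7.84 in its vehicle. These shares (SD, n = 3) are given with no test, and the share of Fosl1 carries the limit of its overlap with Ccdc85b.

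**Figure D4:**
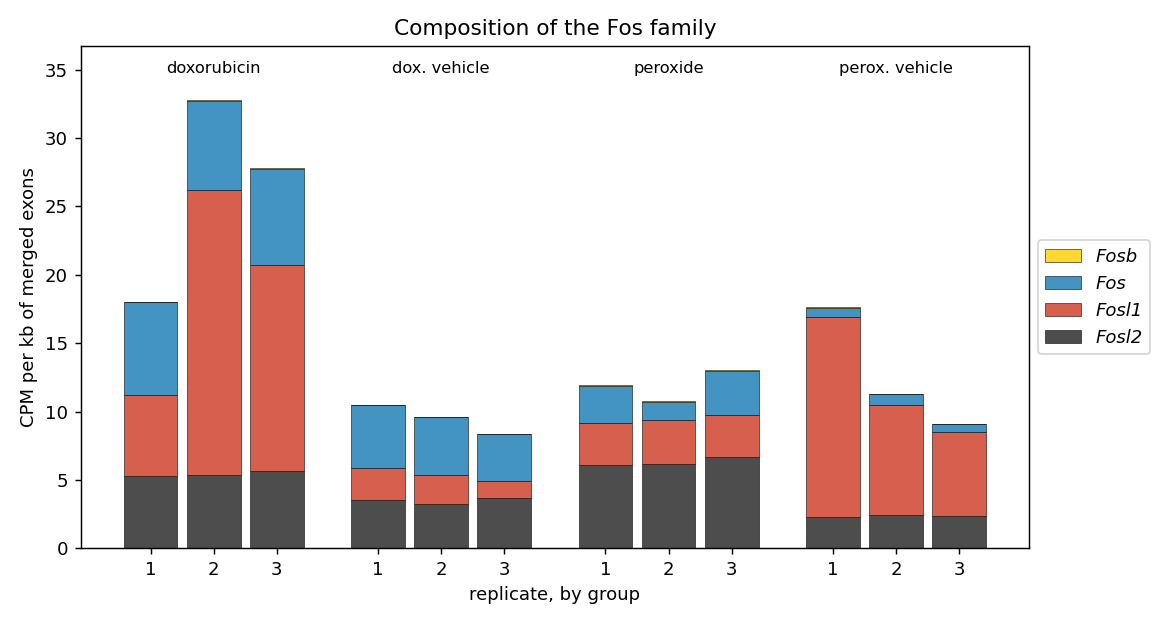
Level of Fos, Fosb, Fosl1 and Fosl2 in CPM per kilobase of merged exon, stacked for each of the 12 libraries by group. Fosl1 makes up 50.2% of the sum on average in the doxorubicin libraries and 26.3% in the peroxide libraries.

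Over the 12 libraries, the gene with the pattern most like Fos was Gpr35, a G protein-coupled receptor (Pearson r = 0.981 of log2(CPM + 1)). It was followed by Lmbrd1, a lysosomal membrane protein of vitamin B12 transport (0.956), and Cdadc1 (0.955). Gpr35 averaged 15.7 CPM with doxorubicin, 11.3 CPM in its vehicle, 8.45 CPM with peroxide and 4.01 CPM in its vehicle. Fosl1 was most like Dok1, an adaptor of tyrosine kinase signalling (0.977), at 65.9 and 10.02 CPM in doxorubicin and its vehicle and 12.8 and 43.6 CPM in peroxide and its vehicle. Fosl2 was most like Cdh11, the mesenchymal cadherin 11 (0.996). Jun was closest to Bin1 (0.978), Junb to Slc41a3 (0.969), Jund to Pcmtd2 (0.974), Egr1 to Ankrd37 (0.983), Atf3 to Repin1 (0.960) and Ier2 to Vegfb (0.945). The points share the 4 groups, so these values describe the group pattern.

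Of 27 other immediate early genes, 22 were tested, of which 10 rose and 4 fell with doxorubicin (median 0.58 log2 units) and 8 rose and 2 fell with peroxide (median 0.16). Over all tested genes, 22.1% were higher and 27.8% lower with doxorubicin, and 27.3% higher and 23.4% lower with peroxide. Btg2, an antiproliferative gene and known p53 target, averaged 149.9 ± 3.47 CPM with doxorubicin and 43.1 ± 3.64 CPM in its vehicle, and rose by 1.78 log2 units (adjusted p = 5.74e-08). It rose by 2.19 log2 units with peroxide (adjusted p = 1.66e-08). Nr4a1, an orphan nuclear receptor, averaged 39.3 ± 7.18 CPM with doxorubicin and 7.25 ± 2.44 CPM in its vehicle (2.32, adjusted p = 2.10e-05). Its increase with peroxide of 0.89 log2 units (adjusted p = 0.0128) was lost without peroxide replicate 1 (adjusted p = 0.0519). Ccn2, the matricellular connective tissue growth factor, rose with doxorubicin to 14.7 ± 1.24 CPM, against 2.94 ± 0.25 CPM in its vehicle (2.00, adjusted p = 6.26e-08). Egr2, a relative of Egr1, rose with peroxide by 1.21 log2 units (adjusted p = 0.000118). Among the genes that fell with doxorubicin, Klf2 stood at -0.66 (adjusted p = 0.00916), Klf10 at -0.58 (adjusted p = 0.000316) and Klf4 at -0.56 (adjusted p = 0.000408), all Krüppel-like factors. Klf10 fell with peroxide too (-0.47, adjusted p = 0.00121). Myc, the growth-promoting factor, averaged 11.97 ± 3.67 CPM with peroxide and 48.1 ± 31.6 CPM in its vehicle (-1.76, adjusted p = 0.0263), a call lost without peroxide replicates 1 (0.0521) or 2 (0.0796) or vehicle replicates 1 (0.110) or 2 (0.0540). The number that rose with peroxide was 4 without peroxide replicate 1.

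Among 10 other AP-1 partner and related leucine zipper genes, 7 were tested. With doxorubicin 1 rose and 3 fell (median -0.26), and with peroxide 3 rose and 2 fell (median 0.10), beside 49.9% and 50.7% of all tested genes called in either direction. Mafk, a small Maf protein, rose with doxorubicin to 12.95 ± 8.61 CPM, against 1.88 ± 0.58 CPM (2.12, adjusted p = 0.000558). Maf fell with doxorubicin by 0.88 log2 units (value -0.88, adjusted p = 0.000386) and rose with peroxide by 1.11 (adjusted p = 6.47e-05). Atf2, a partner of Jun at cyclic AMP response elements, fell with doxorubicin (-0.51, adjusted p = 0.00171). Its increase with peroxide, 0.29 log2 units (adjusted p = 0.0381), was lost under 8 alternatives, among them the fits without peroxide replicate 3 (0.136), peroxide vehicle replicates 1 (0.0631) or 2 (0.145) or doxorubicin vehicle replicates 1 (0.0509) or 2 (0.0524). Atf1 fell with doxorubicin (-0.32, adjusted p = 0.0156), a call lost without doxorubicin replicate 2 (0.0541) or vehicle replicate 2 (0.0656), and with peroxide (-0.58, adjusted p = 0.000439). Mafg fell with peroxide (-0.43, adjusted p = 0.0110). Atf7, a relative of Atf2, averaged 53.7 ± 1.52 CPM with peroxide and 45.1 ± 1.38 CPM in its vehicle (0.25, adjusted p = 0.0316), and shares 17.0% of its windows with other annotated genes. Its call was lost with median-of-ratios scaling (0.0608) and without peroxide replicates 1 (0.0827) or 3 (0.0669) or vehicle replicates 1 (0.0768), 2 (0.0511) or 3 (0.0874). The number that rose with peroxide was 1 without peroxide replicate 3 or without vehicle replicates 1 or 2.

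The MAP kinase cascade relays growth and stress signals to AP-1. Of 16 of its genes, 14 were tested, 2 rose and 2 fell with doxorubicin (median -0.01), and 1 rose and 1 fell with peroxide (median -0.20). Over all tested genes, 49.9% were called with doxorubicin and 50.7% with peroxide. These 4 and 2 genes are fewer than those shares of 14, a shortfall that was not tested and varied with the setting. With peroxide, 1 rose and 4 fell with the GC correction. Without doxorubicin replicate 1, doxorubicin vehicle replicate 3 and peroxide replicate 2, 2 rose and 4 fell with peroxide. Map2k3, a kinase of p38, rose with doxorubicin (0.48, adjusted p = 0.00225) and fell with peroxide (-0.55, adjusted p = 0.000956). Map2k1, known as MEK1, rose with peroxide to 30.2 ± 1.38 CPM, against 23.1 ± 1.76 CPM (0.38, adjusted p = 0.00246). Map3k1 (-0.72, adjusted p = 0.000122) and Map3k4 (-0.51, adjusted p = 0.00405) fell with doxorubicin. Map2k7, a kinase of JNK, rose with doxorubicin (0.42, adjusted p = 0.0316), a call lost without doxorubicin replicates 2 (0.0883) or 3 (0.0905) or vehicle replicates 1 (0.114) or 2 (0.0698). The number that fell with peroxide was 3 without peroxide replicate 2, and 2 without doxorubicin replicates 1 or 2, doxorubicin vehicle replicate 1, peroxide replicates 1 or 3, or peroxide vehicle replicate 1.

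Feedback inhibitors of MAP kinases are the dual-specificity phosphatases and Sprouty proteins. Of 15 genes, 14 were tested, 7 rose and 1 fell with doxorubicin (median 0.32), beside 22.1% of all tested genes higher and 27.8% lower. With peroxide 6 rose and 5 fell (median 0.08), beside 27.3% higher and 23.4% lower. Dusp9 reached the filter only through the peroxide vehicle libraries, and without it the counts were 7 and 1 of 13 with doxorubicin (median 0.36) and 6 and 4 of 13 with peroxide (median 0.40). Spry2 rose with both treatments, to 191.6 ± 10.2 CPM with doxorubicin, against 61.2 ± 4.53 CPM (1.63, adjusted p = 7.00e-05), and by 1.25 with peroxide (adjusted p = 0.000462). Spry1 rose with doxorubicin by 1.57 (adjusted p = 6.26e-06) and with peroxide by 0.67 (adjusted p = 0.00271). Dusp6, a cytoplasmic phosphatase of this group, averaged 10.98 ± 5.32 CPM with doxorubicin and 2.79 ± 1.40 CPM in its vehicle (1.61, adjusted p = 0.0153), and 2.33 ± 1.34 CPM with peroxide and 9.31 ± 5.10 CPM in its vehicle (-1.59, adjusted p = 0.0158). The first call was lost without doxorubicin replicates 2 (0.0617) or 3 (0.0596) or vehicle replicate 3 (0.0642), and the second without peroxide replicate 2 (0.0567) or vehicle replicate 1 (0.0684). With peroxide, Dusp1 rose (0.69, adjusted p = 0.00135) while Dusp4 (-1.37, adjusted p = 0.000181) and Dusp7 (-0.64, adjusted p = 0.00166) fell. Dusp10, a phosphatase of JNK and p38, fell with doxorubicin (-0.41, adjusted p = 0.00761). The number that rose with doxorubicin was 3 without doxorubicin replicate 3, and 4 without doxorubicin replicate 2 or vehicle replicates 2 or 3.

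All 9 genes of the list of serum response and EGR cofactors were tested. This list also held Srf and Creb1, which are not such cofactors. With doxorubicin 2 rose and 2 fell (median -0.08), and with peroxide 0 rose and 3 fell (median -0.25), beside 49.9% and 50.7% of all tested genes called in either direction. Nab2 (0.95, adjusted p = 0.00969), a corepressor of EGR factors, and Mrtfa (0.94, adjusted p = 0.0118), an actin-regulated cofactor of serum response factor, rose with doxorubicin. Creb1 fell with doxorubicin (-0.67, adjusted p = 0.000203) and with peroxide (-0.66, adjusted p = 0.000214), and so did Nab1 (-0.45, adjusted p = 0.00128, and -0.69, adjusted p = 5.45e-05). Srf, serum response factor itself, averaged 2.10 ± 1.29 CPM with peroxide and 5.35 ± 1.16 CPM in its vehicle (-1.12, adjusted p = 0.0205), not called without peroxide replicate 2 (0.0725) or vehicle replicates 1 (0.0526) or 2 (0.0722).

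Of 13 textbook AP-1 target genes, 9 were tested, among them Mmp3, which passed the filter only through the doxorubicin libraries and was at 0 in all vehicle libraries. Without it, 5 of 8 rose and 0 fell with doxorubicin (median 1.26), beside 22.1% of all tested genes higher and 27.8% lower, and 4 rose and 2 fell with peroxide (median -0.09), beside 27.3% higher and 23.4% lower. With Mmp3 the counts were 6 and 0 with doxorubicin and 5 and 2 with peroxide, and the medians, with its vehicle libraries at the floor of 3 reads each, were 1.10 and 0.20. Timp1, an inhibitor of matrix metalloproteinases, rose with doxorubicin to 398.9 ± 31.7 CPM, against 103.3 ± 5.05 CPM (1.94, adjusted p = 5.50e-08), and by 1.10 with peroxide (adjusted p = 4.34e-06). Ccnd1, cyclin D1, averaged 127.1 ± 47.1 CPM with doxorubicin and 23.0 ± 4.87 CPM in its vehicle (2.37, adjusted p = 1.29e-05). Hbegf, a ligand of the EGF receptor, rose with doxorubicin (1.70, adjusted p = 0.000733). Plau, the urokinase gene, rose with peroxide (0.97, adjusted p = 0.000113). Mmp3, stromelysin 1, averaged 0.706 ± 0.297 CPM with peroxide and was listed at 0 in all 3 libraries of its vehicle. Hmga1, a chromatin protein, fell with peroxide to 56.0 ± 28.8 CPM, against 285.1 ± 46.0 CPM (-2.49, adjusted p = 0.00131), but other annotated genes share 69.1% of its windows. Plaur, the urokinase receptor, fell with peroxide (-1.97, adjusted p = 0.0232), not without vehicle replicates 1 (0.0551) or 2 (0.0632). The number that fell with peroxide was 1 when either of these vehicle libraries was left out. Reads could also be shared for Map2k7, Nab2, Ccnd1, Spry1 and Atf1, where other annotated genes hold 37.4%, 31.0%, 27.2%, 19.4% and 17.2% of the windows.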

How the data were processed

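RNA of 12 libraries, 4 groups of 3, was sequenced, and the authors deposited counts per 1e+06 reads (CPM) per gene. Per the submitters' processing notes, bcl2fastq, DRAGEN and the mm10 build were used; the sources used here do not give the counter, annotation and strand setting. Of 55774 lines, 287 that repeated an identifier with identical values were dropped. Depth was read from the size of the steps between low CPM values. Only 74.6% to 79.8% of values of at most 20 reads came out whole (within 0.001), so no count test was run. The deposited CPM were put on the log2(CPM + 1) scale, and genes with at least 1 CPM in 3 libraries were fitted over all 4 groups with limma 3.58.1 (trend; R 4.3.3), with Benjamini-Hochberg adjustment and a threshold of 0.05; the scripts were tested on simulated data. Fosb, below the filter, got a two-sided exact permutation test and a ratio of pooled estimated reads with an interval for counting error only. Gene lengths, positions and GC content came from GENCODE M21 (99.4% of identifiers matched) and promoters from RefSeq. The members and lists were chosen with earlier results of these data known. From each list, up to 3 called genes with the largest increase and decrease per treatment are named, and for each tested member the gene of the highest correlation (3 for Fos). Alternatives were pseudocounts, filters, scalings, separate fits, a replicate block, leaving out libraries and a GC correction. Python 3.11.15 was used for the rest. Some genes of the lists are not reported here and enter no list count.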

Additional observations from a re-analysis of the deposited data

Results flagged for a closer look

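The effects of the treatments differed, by the interaction test of the limma fit, for 5 of the genes described above and for 24 named genes of the lists. Over all tested genes, 33.6% were called different. The list genes were named for the largest called effects in these same data, which favours such differences, so their number is no support. Each value is the doxorubicin effect minus the peroxide effect in log2 units, in which treatment, dose, day and experiment cannot be told apart. With 3 libraries a group, single libraries far from their group were not tested. Among AP-1 and early response factors the values were 3.86 for Fosl1, -0.74 for Fosl2, 0.85 for Jun, -1.03 for Jund and -1.45 for Egr1. Among other immediate early genes they were 1.43 for Nr4a1, -0.97 for Klf4, 3.02 for Myc, -0.41 for Btg2 and 1.65 for Ccn2. Leucine zipper partners gave -0.80 for Atf2, -1.998 for Maf, -0.38 for Atf7 and 2.17 for Mafk. In the MAP kinase cascade, Map2k1 had -0.42, Map2k3 1.03 and Map3k1 -0.66. The feedback genes Dusp4, Dusp6, Dusp7, Dusp10 and Spry1 had 2.03, 3.21, 0.61, -0.81 and 0.90. The list of serum response and EGR cofactors gave 1.503 for Srf, 1.35 for Mrtfa and 1.20 for Nab2. Among AP-1 targets, Timp1 had 0.83, Ccnd1 2.75, Hbegf 2.22 and Hmga1 3.44. The calls of Atf7, Jun, Btg2, Srf, Dusp7 and Nab2 were lost under 14, 12, 11, 10, 7 and 7 of the alternatives, and those of Map2k1, Myc and Mrtfa under 1 each.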

How the results depend on the processing

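Of 36 values of the 9 tested members (4 comparisons each), 21 kept their direction and their side of the threshold under every alternative. Of 825 alternative values, 767 did so, 44 lost the call, 9 gained it and 5 changed sign without being called. For the named list genes, 1676 of 1772 did so and 96 lost the call. Leaving out 1 library at a time, Ier2 with doxorubicin ranged from -0.18 without doxorubicin replicate 2 to 0.053 without replicate 1, and the differences between treatments of Junb from -0.12 to 0.49 and of Atf3 from -0.044 to 0.98, each lowest without doxorubicin replicate 2 and highest without replicate 1. With the GC correction the differences of Junb (-0.14) and Ier2 (-0.082) changed sign. The count of members called with doxorubicin, 5, was 3 without peroxide replicate 2 and doxorubicin vehicle replicate 3 together, and between 2 and 5 when 1 library was left out. The cause was not tested. With the replicate number as a block, 3 members were called with doxorubicin (2605 of all genes higher and 3352 lower), 5 with peroxide (3324 and 2767) and 4 for the difference. Replicate numbers did not pair the libraries: same-numbered treated and vehicle libraries had deviations from their group means that correlated at -0.31, 0.19 and -0.28 in the doxorubicin and at 0.14, 0.03 and -0.24 in the peroxide experiment. Depth limits Fosb, Junb and Atf3. Leaving out the libraries that lay apart, the GC correction and the list counts without Dusp9 and Mmp3 were chosen after seeing the data.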
